A study of Mus musculus with 12 samples.

Results

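The synaptic vesicle and transmitter release genes are 34 genes chosen by name for their place in the vesicle cycle, from the SNARE proteins of membrane fusion to the dynamin that retrieves vesicle membrane. They were chosen with earlier results of these data known. All 34 were found by gene symbol among the 15322 genes of the deposited table, and all 34 were among the 15194 genes tested, so no member was lost to the filter on low values. RNA was measured in dorsal root ganglia, which hold the cell bodies of the sensory neurons that project to the spinal cord, taken at lumbar levels L3 to L5 from wild-type (WT) mouse pups at postnatal day 9. From postnatal day 2 to postnatal day 9 dam and pups lived either with limited bedding, a model of early life stress (the stress groups), or with control bedding (the control groups). Control females, control males, stress females and stress males each gave 3 libraries, 12 in all, and the groups share genotype, age and tissue. The labels give neither the strain nor the litter of a pup, nor whether ganglia were pooled, so each p-value measures only how these samples spread, which may be partly technical or within a litter.

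A nerve terminal holds transmitter in small vesicles. A vesicle is tethered at the active zone by large scaffold proteins, primed by RIM and Munc13 proteins, and fused when synaptotagmins sense calcium and the SNARE proteins of vesicle and plasma membrane zip together under the control of complexins. Sensory neurons make these proteins in the ganglion and ship them along the axon to terminals in the spinal cord and skin, and the ganglion holds the cell bodies but not those terminals.

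Values are the authors' normalized read counts, scaled between libraries in the manner of DESeq2 size factors. Fold changes are on the log2(value + 1) scale with their standard errors (SE), from limma with Benjamini-Hochberg adjustment over all 15194 genes, and a gene is said to rise or fall only at an adjusted p under 0.05. Depth in 11 of the 12 libraries, estimated from the spacing of low values, ran from 16500000 to 27000000 reads. In stress female replicate 2 that spacing was hardly seen (27.5% of low values within 0.1 of a step), against 72.6% to 86.1% in control libraries and 60.4% to 65.4% in the other stress libraries. Its depth is therefore uncertain, and members whose call rests on it are given with and without it. The share of low values near a step was lower in every stress library than in every control library, and the reason was not tested. Sensory neuron markers were high in every library, with a summed value of 117389 to 125163 in control and 114295 to 132808 in stress libraries over 10 genes. Of 16 spinal cord markers, 5 were in the table and 11 were not analysed here, and the 5 summed to no more than 640 in any library.

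Over both sexes, 16 of the 34 members changed after limited bedding, 6 upward and 10 downward. Among all genes tested 26.2% changed, 12.8% upward and 13.4% downward. The members are abundant transcripts, and among the 4890 genes with a mean of at least 1000, where 32 of the 34 members lie, 15.5% rose and 19.4% fell. The share of members called was 47.1%, and the median change over the members was -0.04 on the log2 scale against 0.01 over all genes. As the members were chosen with earlier results of these data known, that share is a description and was not tested. The changes were small: Rph3a, which fell by 37.7%, was the only member past 1.5-fold. Within 4 of the 7 roles some members rose and others fell. Snap25 and Vamp1 fell while Stx1a rose, Syt2 fell while Syt1 rose, Syngr1 and Syp fell while Sv2a rose, and Rims1, Rims2 and Erc2 rose while Rab3a fell. In whole ganglia fewer cells of a type and less RNA per cell cannot be told apart.

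**Figure D1:**
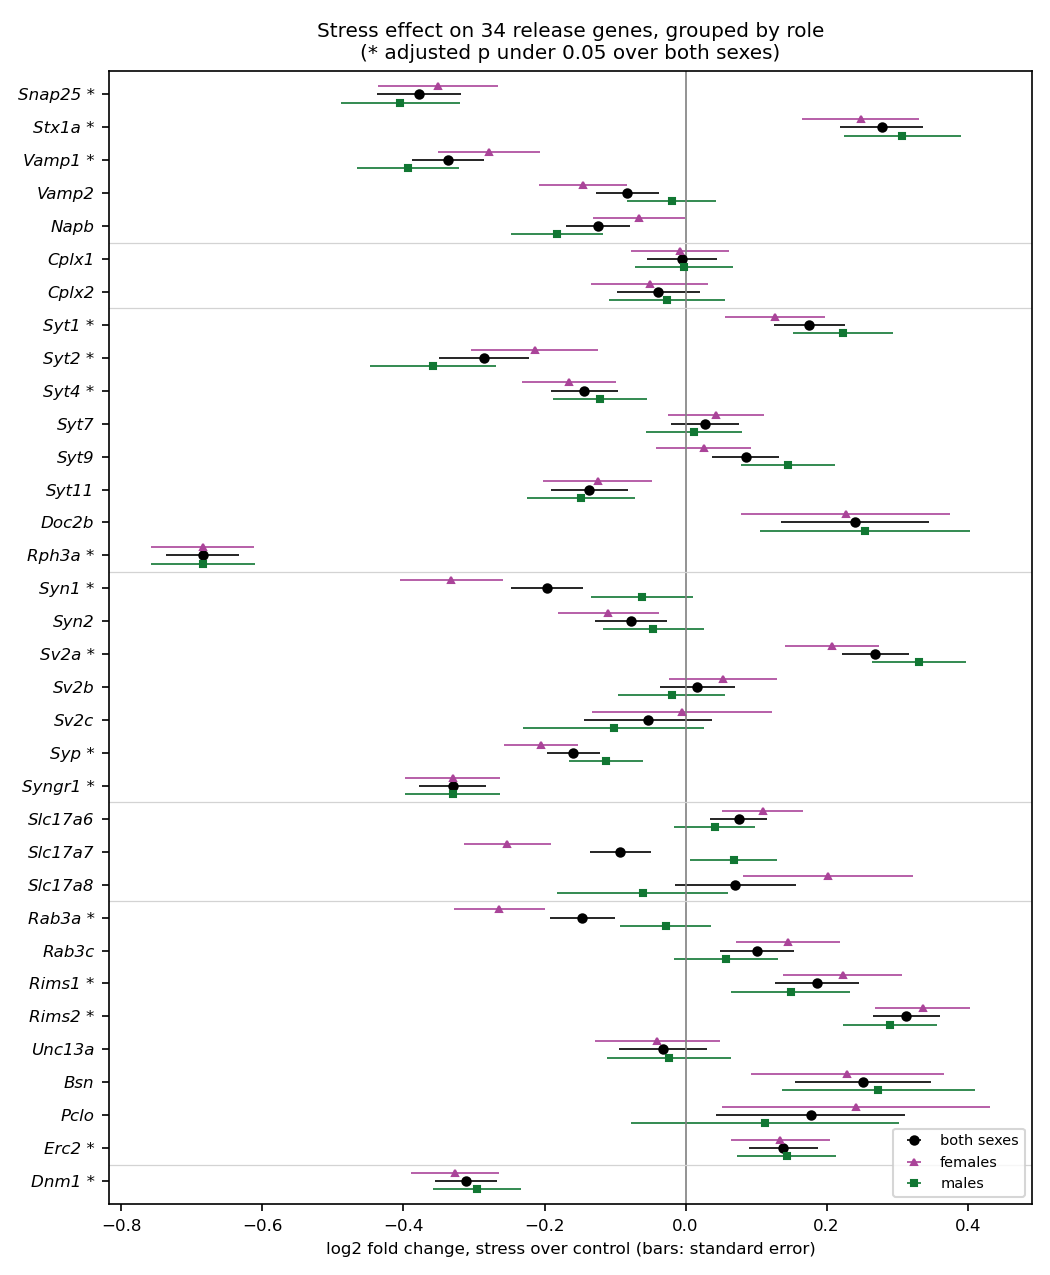
Change of each of the 34 members after limited bedding, as the log2 fold change of stress over control with its standard error, over both sexes (circles), in females (triangles) and in males (squares), with lines between roles and an asterisk at the 16 members past an adjusted p of 0.05 over both sexes. Over both sexes Rph3a at -0.68 stands lowest and Rims2 at 0.31 highest.

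The 6 stress values lay wholly below the 6 control values for 7 members (Snap25, Vamp1, Syt2, Rph3a, Syp, Syngr1 and Dnm1) and wholly above them for 2 (Sv2a and Rims2), while the groups overlapped for 25. Among all genes tested 5.73% were wholly below and 5.21% wholly above. The number of called members moved with a few choices. With 1 prior variance for all genes, or without control male replicate 2, only 3 members rose in place of 6.

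The largest change was that of Rph3a, which encodes rabphilin, a C2-domain protein that binds Rab3 and Rab27 on the vesicle and SNAP25 on the plasma membrane. It lies on chromosome 5 from 120940499 to 121010092 (GRCm38, minus strand). Control females read 8471, 8680 and 8550 and control males 7627, 8443 and 9015, whereas stress females read 4931, 5366 and 5721 and stress males 5343, 4729 and 5537. Every stress library lay under every control library, in females and in males. The mean went from 8465 ± 460 (SD, n = 6) to 5271 ± 374 (SD, n = 6), a change of -0.68 ± 0.05 (SE, adjusted p = 2.4e-07). The change was -0.68 ± 0.07 (SE, adjusted p = 4.0e-05) in females and -0.68 ± 0.07 (SE, adjusted p = 2.5e-05) in males.

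To show the regulatory sequence next to these changes, RefSeq promoter windows (GRCm38.p6, 250 bases before to 50 after an annotated start, read along the gene's strand) are printed for 4 members: Rph3a as the largest fall (of its 3 windows, the 1 with a motif), Vamp1 as a fall and Stx1a as a rise in the same fusion complex, and Syn1 as a member whose window holds neuron-linked motifs. Capitals mark a GC box (GGGCGG, or CCGCCC on the other strand) in Rph3a, Vamp1 and Stx1a, and in Syn1 the left arm of RE1 (TTCAGCACC), the element bound by the neuronal repressor REST, followed by a cAMP response element (TGACGTCA). The windows are chr5:121009489-121009788 on the minus strand for Rph3a, chr6:125215331-125215630 on the plus strand for Vamp1, chr5:135023232-135023531 on the plus strand for Stx1a and chrX:20920869-20921168 on the minus strand for Syn1.
Rph3a: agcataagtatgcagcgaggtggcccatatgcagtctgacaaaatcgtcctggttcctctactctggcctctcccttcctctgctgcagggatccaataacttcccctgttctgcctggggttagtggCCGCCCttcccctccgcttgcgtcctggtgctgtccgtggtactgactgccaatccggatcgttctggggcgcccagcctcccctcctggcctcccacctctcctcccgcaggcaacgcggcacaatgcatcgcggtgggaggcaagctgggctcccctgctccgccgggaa
Vamp1: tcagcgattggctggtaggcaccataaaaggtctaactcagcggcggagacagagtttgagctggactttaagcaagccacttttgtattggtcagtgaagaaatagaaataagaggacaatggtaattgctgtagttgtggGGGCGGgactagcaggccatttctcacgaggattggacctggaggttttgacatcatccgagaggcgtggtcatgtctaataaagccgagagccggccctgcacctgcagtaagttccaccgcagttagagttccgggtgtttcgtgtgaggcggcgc
Stx1a: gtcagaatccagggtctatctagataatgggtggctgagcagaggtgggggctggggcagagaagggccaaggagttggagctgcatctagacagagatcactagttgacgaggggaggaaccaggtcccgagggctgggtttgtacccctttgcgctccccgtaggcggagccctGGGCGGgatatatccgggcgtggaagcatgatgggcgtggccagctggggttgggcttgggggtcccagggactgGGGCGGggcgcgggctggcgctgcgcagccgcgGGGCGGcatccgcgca
Syn1: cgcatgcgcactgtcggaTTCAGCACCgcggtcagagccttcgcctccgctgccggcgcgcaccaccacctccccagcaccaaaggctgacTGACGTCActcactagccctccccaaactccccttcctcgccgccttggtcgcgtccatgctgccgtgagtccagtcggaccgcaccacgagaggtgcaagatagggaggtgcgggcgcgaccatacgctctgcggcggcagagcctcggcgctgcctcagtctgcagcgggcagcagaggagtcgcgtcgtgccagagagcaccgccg

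Motifs were searched on both strands in the 39 windows of the 28 members that matched the RefSeq table. Snap25, Vamp2, Syt4, Syt7, Doc2b and Rims2 had no entry. A GC box stood in 24 of the 39 member windows, those of 23 members, and in 35.7% of all 32851 windows, and the GC content of member windows had a median of 60%, against 52.7% for all windows. The left RE1 arm was in Syn1 and Unc13a (0.371% of all windows). The right arm GGACAGCGC was in Unc13a alone among the members (0.405% of all windows). A cAMP response element was in Syn1 (1.79% of all windows), and the TATA box TATAAA was in windows of Sv2b (13.6% of all windows). GC boxes were found in members that rose (Stx1a, Sv2a, Syt1, Rims1, Erc2) and in members that fell (Rph3a, Vamp1, Syngr1, Dnm1, Syt2, Syp, Rab3a) alike.

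The SNARE proteins split by gene. Snap25 encodes the plasma membrane SNARE that supplies a pair of helices to the fusion complex, and it lies on chromosome 2 from 136713453 to 136782428. Control females read 17949, 18387 and 18127 and control males 17335, 18311 and 18145, whereas stress females read 13348, 13557 and 15927 and stress males 14837, 11566 and 14477. All 6 stress libraries were lower than all 6 control libraries, and the spread among the stress libraries was wider (CV 10.7% against 2.10%). The mean fell by 22.7%, a change of -0.38 ± 0.06 (SE, adjusted p = 0.00024). Vamp1, the vesicle SNARE that prevails in motor and other fast-conducting neurons, ran from 12442 to 13140 (median 13004) in control and from 8833 to 11493 (median 10274) in stress libraries. The groups did not overlap, and Vamp1 fell by 20.5% (-0.34 ± 0.05, SE, adjusted p = 0.00016).

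Stx1a, the syntaxin that completes the complex on the plasma membrane, moved the other way. Its control libraries ran from 1491 to 1758 (median 1636) and its stress libraries from 1685 to 2154 (median 2007), so that the groups overlapped only through a low stress female library. The mean rose by 21.5% (0.28 ± 0.06, SE, adjusted p = 0.0025). Vamp2, the vesicle SNARE of most central synapses, had values from 12323 to 13040 (median 12704) in control against 10773 to 13727 (median 11821) in stress libraries. Its change of -0.08 ± 0.04 (SE, adjusted p = 0.188) was not called, and without stress male replicate 3 it was (adjusted p = 0.0467). Napb, a neuronal SNAP that works with NSF to take spent SNARE complexes apart, ran from 7771 to 8610 (median 8036) in control and from 6888 to 8353 (median 7409) in stress libraries, a change of -0.12 ± 0.05 (SE, adjusted p = 0.055) just outside the threshold. It was called without control male replicate 1 (adjusted p = 0.0438) or stress female replicate 2 (adjusted p = 0.0123), and the authors' deposited table has it at an adjusted p of 0.0489.

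Complexins bind the assembled SNARE complex and both clamp and promote fusion. Cplx1 had the highest level of all members per kilobase of transcript in control libraries, 13166 ± 307 normalized counts per kb (SD, n = 6). It ran from 27917 to 29771 (median 28858) in control and from 25181 to 31121 (median 29100) in stress libraries, with a change of -0.01 ± 0.05 (SE, adjusted p = 0.956). The sign of that small value turned under 9 of the 29 other settings tried, so no direction is given for it. Cplx2 had a change of -0.04 ± 0.06 (SE, adjusted p = 0.677) and overlapped widely as well.

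**Figure D2:**
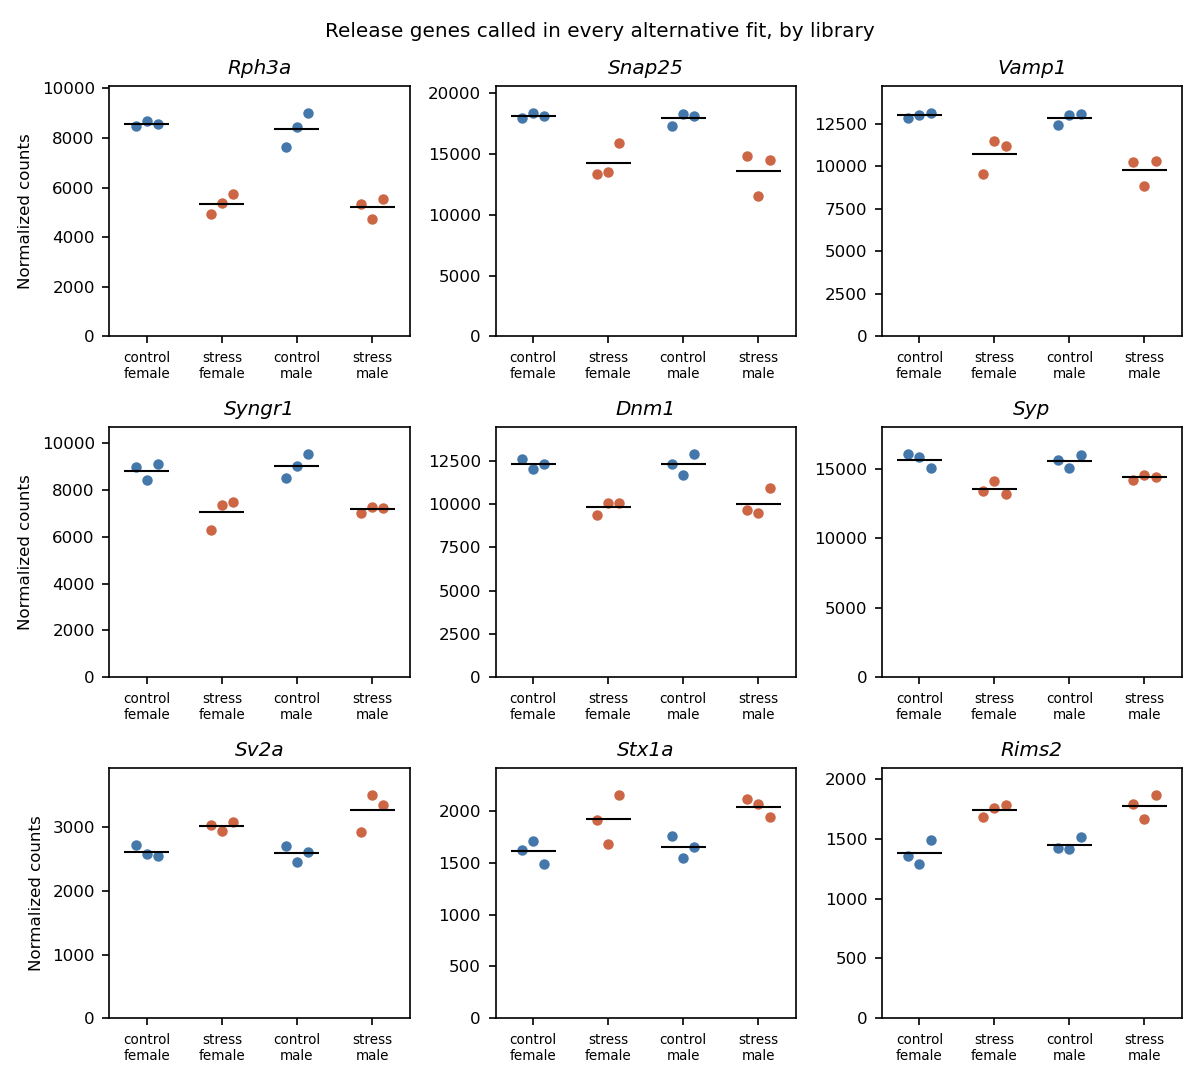
Normalized counts in the 3 libraries of each group (points, blue for control and orange for stress) with the group mean (line) for the 9 members called over both sexes in every alternative fit. The stress points of Rph3a, Snap25, Vamp1, Syngr1, Dnm1 and Syp all lie below the control points, those of Sv2a and Rims2 all lie above, and those of Stx1a overlap through a stress female library at 1685.

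Among the calcium sensors the fast synaptotagmins Syt1 and Syt2 went in opposite directions. Syt2, the fast sensor of motor terminals and other rapidly firing synapses, ran from 6606 to 7953 (median 6905) in control and from 4761 to 6328 (median 5816) in stress libraries. No stress library reached the lowest control value, and Syt2 fell by 17.8% (-0.29 ± 0.06, SE, adjusted p = 0.0035). Syt1, the fast sensor of most forebrain synapses, ran from 7051 to 7597 (median 7462) in control and from 7427 to 9640 (median 8179) in stress libraries, with some overlap. It rose by 13.3% (0.18 ± 0.05, SE, adjusted p = 0.017), and without control male replicate 2 the adjusted p was 0.0501.

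Of the other C2-domain members besides Rph3a, Syt4 alone was called. Syt4, which lacks ordinary calcium binding and sits on dense core vesicles, fell by 9.34% (-0.14 ± 0.05, SE, adjusted p = 0.033). The call ended without any of 8 single libraries (control female replicates 1, 2 and 3, control male replicate 3, stress female replicates 1 and 3, stress male replicates 1 and 2), at adjusted p-values from 0.0591 to 0.0855 in limma. Of its exon bases 14.5% overlap an antisense gene (Gm26658), whose reads cannot be told apart without the strand setting. Syt11, a relative of Syt4, was the most abundant of the 8 sensors per kilobase, with values from 29744 to 33360 (median 31598) in control and from 25022 to 31763 (median 28258) in stress libraries. Its change of -0.14 ± 0.05 (SE, adjusted p = 0.076) was not called here. It was called without stress female replicate 2 (adjusted p = 0.0252) or stress male replicate 3 (adjusted p = 0.0310), and the authors' deposited table has it at an adjusted p of 0.0462. Syt7, the slow high-affinity sensor, had a change of 0.03 ± 0.05 (SE, adjusted p = 0.721), and Syt9 one of 0.09 ± 0.05 (SE, adjusted p = 0.204), which was called only without stress male replicate 1 (adjusted p = 0.0484). Doc2b, a high-affinity sensor linked to spontaneous release, was the least abundant member, with values from 107 to 145 (median 129) in control and from 134 to 165 (median 150) in stress libraries. Its change of 0.24 ± 0.10 (SE, adjusted p = 0.104) was not called.

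Of the 7 genes for proteins of the vesicle membrane and surface, 3 fell, 1 rose and 3 were not called. Syngr1, a tetraspan vesicle protein, ran from 8408 to 9532 (median 8995) in control and from 6274 to 7468 (median 7239) in stress libraries. The groups were well apart, and Syngr1 fell by 20.4% (-0.33 ± 0.05, SE, adjusted p = 0.0001). Syp, the related and classic vesicle marker synaptophysin, ran from 15036 to 16087 (median 15745) in control and from 13191 to 14578 (median 14174) in stress libraries, again with no overlap. It fell by 10.4% (-0.16 ± 0.04, SE, adjusted p = 0.0052). Of its exon bases 16.8% overlap an antisense gene (Gm14703), whose reads cannot be told apart without the strand setting.

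Syn1 encodes synapsin I, which ties vesicles into the reserve pool. Its control libraries were the tightest of all members (CV 1.34%), from 12531 to 12966 (median 12762), while its stress libraries spread from 9235 to 13740 (median 11006). Only stress male replicate 3 exceeded the control range, and Syn1 fell by 12.1% (-0.20 ± 0.05, SE, adjusted p = 0.01). Syn2, its relative, ran from 4738 to 5599 (median 5034) in control and from 4497 to 5420 (median 4798) in stress libraries, and its change of -0.08 ± 0.05 (SE, adjusted p = 0.285) was not called.

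The SV2 proteins are transporter-like glycoproteins of the vesicle and receptors of botulinum toxin. Sv2a ran from 2447 to 2717 (median 2594) in control and from 2924 to 3508 (median 3057) in stress libraries. Every stress library was above every control library, and Sv2a rose by 20.7% (0.27 ± 0.05, SE, adjusted p = 0.00056). Sv2b, the most abundant of the 3 per kilobase, had a change of 0.02 ± 0.05 (SE, adjusted p = 0.854), and Sv2c, the most variable member in control libraries (CV 14.3%), one of -0.05 ± 0.09 (SE, adjusted p = 0.712). Neither was called.

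Vesicular glutamate transporters fill the vesicles of sensory neurons with transmitter, and none of the 3 changed over both sexes. Slc17a6 (VGLUT2), which most sensory neurons use, ran from 6217 to 6823 (median 6379) in control and from 6258 to 7218 (median 6790) in stress libraries, a change of 0.08 ± 0.04 (SE, adjusted p = 0.188). Slc17a7 (VGLUT1), which is typical of large mechanoreceptors and muscle afferents, ran from 3932 to 4364 (median 4311) in control and from 3528 to 4584 (median 3951) in stress libraries, a change of -0.09 ± 0.04 (SE, adjusted p = 0.134). Slc17a8 (VGLUT3), used by unmyelinated low-threshold mechanoreceptors, was low, from 289 to 340 (median 312) in control and from 284 to 416 (median 324) in stress libraries, a change of 0.07 ± 0.09 (SE, adjusted p = 0.587).

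Of the 8 genes for Rab3, priming and active zone proteins, 3 rose, Rab3a fell and 4 were not called. RIM proteins recruit calcium channels and prime vesicles. Rims2 ran from 1293 to 1515 (median 1418) in control and from 1663 to 1867 (median 1770) in stress libraries. The groups did not overlap in either sex, and Rims2 rose by 24.2% (0.31 ± 0.05, SE, adjusted p = 0.00016). Rims1 rose by 13.9% (0.19 ± 0.06, SE, adjusted p = 0.03), and Erc2, the scaffold CAST that binds RIM, rose by 10.2% (0.14 ± 0.05, SE, adjusted p = 0.048). The call of Rims1 ended without any of 7 single libraries (control female replicates 1 and 2, control male replicates 1 and 2, stress female replicate 3, stress male replicates 1 and 3), at adjusted p-values from 0.0509 to 0.0792 in limma. The same 7 libraries, and control female replicate 3 and stress female replicate 1, each ended the call of Erc2, at adjusted p-values from 0.0640 to 0.121.

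Rab3a, the vesicle GTPase that RIM and rabphilin bind, ran from 9308 to 10780 (median 10149) in control and from 8054 to 10521 (median 9119) in stress libraries and fell by 9.36% (-0.15 ± 0.05, SE, adjusted p = 0.026). Its call ended on leaving out control female replicate 1 (adjusted p = 0.0685) or 2 (0.0792), stress female replicate 2 (0.0512) or stress male replicate 1 (0.0615). Its relative Rab3c had a change of 0.10 ± 0.05 (SE, adjusted p = 0.170). Unc13a, which encodes the priming factor Munc13-1, had one of -0.03 ± 0.06 (SE, adjusted p = 0.757), and neither was called.

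Bsn and Pclo encode bassoon and piccolo, the giant scaffolds of the active zone, and in both the stress libraries spread widely. Bsn read 2853, 3001 and 3012 in control females and 3082, 3219 and 3275 in control males. It read 3837, 2481 and 4367 in stress females and 3875, 3522 and 4203 in stress males. Pclo read 1828, 2017 and 2047 in control females, 2019, 2248 and 2142 in control males, 2826, 1436 and 3075 in stress females and 2572, 1984 and 2411 in stress males. In both genes stress female replicate 2 was the lowest of all 12 libraries, and for Bsn the other 5 stress libraries all exceeded the control libraries. For Pclo stress male replicate 2, at 1984, also lay within the control range. With all libraries the change was 0.25 ± 0.10 (SE, adjusted p = 0.066) for Bsn and 0.18 ± 0.13 (SE, adjusted p = 0.359) for Pclo. Without stress female replicate 2 it was 0.37 ± 0.05 (SE, adjusted p = 7.4e-05) for Bsn and 0.35 ± 0.06 (SE, adjusted p = 0.00076) for Pclo. Bsn was also called without stress male replicate 2 (adjusted p = 0.0474). With all 12 libraries it was called under upper quartile scaling (adjusted p = 0.0483), equal totals (0.0415), array weights (0.00996) and the pan-neuronal score (0.00158), and the authors' deposited table has it at 0.0154. In 20 of the 29 other settings tried Bsn was not called, with limma adjusted p-values of up to 0.166. Long transcripts were lower in stress female replicate 2 than in the other stress libraries: over 372 genes with a transcript of at least 10 kb the median centred log2 value was -0.07 there, against -0.03 to 0.19 in the other stress libraries and -0.11 to 0.02 in control libraries. With a trend on transcript length and GC content taken out of each of the 12 libraries, neither Bsn nor Pclo was called. The part of the long transcript shift in the 2 genes was not tested.

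Dnm1, the GTPase that cuts retrieved vesicles from the membrane and the sole member with that role, ran from 11655 to 12886 (median 12278) in control and from 9334 to 10893 (median 9838) in stress libraries. No stress library reached the control range, and Dnm1 fell by 19.4% (-0.31 ± 0.04, SE, adjusted p = 8.5e-05).

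The ratio of close relatives in each library is a value that any scaling of the library leaves unchanged. The 11 pairs were chosen after the values were seen, so their ratios are a description with no test, on the log2 scale and not corrected for length. That of Syt1 to Syt2 went from 0.07 ± 0.10 (SD, n = 6) in control to 0.54 ± 0.17 (SD, n = 6) in stress libraries. Control libraries spanned -0.07 to 0.20 and stress libraries 0.23 to 0.76, so the ranges did not meet.

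The ratio of Vamp1 to Vamp2 went from 0.03 ± 0.05 to -0.23 ± 0.20 (SD, n = 6 each). Stress minus control, that of Rab3a to Rab3c differed by -0.25, that of Sv2a to Sv2b by 0.25, that of Sv2a to Sv2c by 0.32 and that of Rims1 to Rims2 by -0.13. For the other 5 pairs the difference was 0.17 for Slc17a6 to Slc17a7, -0.12 for Syn1 to Syn2, 0.03 for Cplx1 to Cplx2, 0.07 for Bsn to Pclo and -0.01 for Syt4 to Syt11. Control and stress ranges overlapped in all pairs but Syt1 to Syt2. With each library left out in turn the difference ran from 0.43 to 0.51 for Syt1 to Syt2 and from -0.30 to -0.21 for Vamp1 to Vamp2.

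**Figure D3:**
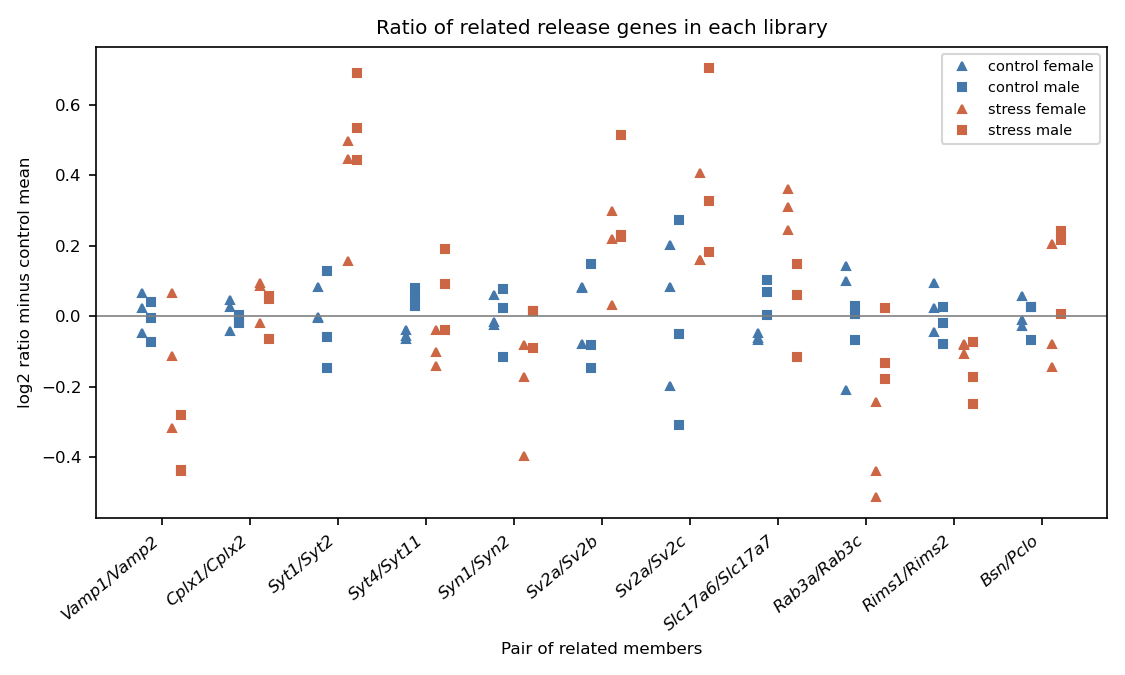
Log2 ratio of the 2 members of each of 11 pairs in each of the 12 libraries, less the pair's mean over the 6 control libraries (zero line), with females as triangles, males as squares, control in blue and stress in orange. The ratio of Syt1 to Syt2 is the pair in which no stress library meets a control library.

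In females alone 10 members changed, Rims2 upward and 9 downward (Rph3a, Snap25, Vamp1, Syngr1, Dnm1, Syn1, Syp, Rab3a and Slc17a7), where 4.96% of all genes rose and 6.07% fell. In males alone 10 members changed as well, 4 upward (Sv2a, Stx1a, Rims2 and Syt1) and 6 downward (Rph3a, Snap25, Vamp1, Syngr1, Dnm1 and Syt2), where 7.71% of all genes rose and 8.11% fell. Called in both sexes were 6 members, Rims2 upward and Rph3a, Snap25, Vamp1, Syngr1 and Dnm1 downward, and 31 of the 34 had the same sign in females and males. The shares of all genes called in both sexes, or with the same sign in both, are not given here. These counts are therefore not read as particular to the members. Stress females lay wholly above control females for 6 members and wholly below for 13 (14.8% and 15.9% of all genes), and stress males wholly above for 5 and below for 8 (16.4% of all genes each way). In females the calls of Rph3a, Rims2, Syngr1, Dnm1 and Syn1, and in males those of Rph3a, Snap25, Vamp1, Syngr1, Dnm1, Rims2 and Sv2a, held without any single library. The other calls in 1 sex ended without at least 1 library, at adjusted p-values of up to 0.0752 for Snap25, 0.117 for Vamp1, 0.0964 for Syp, 0.0717 for Slc17a7 and 0.0869 for Rab3a in females and up to 0.0945 for Stx1a, 0.179 for Syt1 and 0.0639 for Syt2 in males.

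Single libraries moved the counts within a sex. The female count of members that fell was 5, in place of 9, on leaving out replicate 1 of the control females, 4 on leaving out their replicate 2 and 5 on leaving out replicate 1 of the stress females. The female count that rose was 4 without stress female replicate 2 and 2 without stress male replicate 1 or 2, and the male count that rose was 2 without control male replicate 2.

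A call in a single sex does not show that the sexes differ, and the difference itself was tested as the stress effect in males minus that in females. By limma 0 members and 0 genes passed (0%), with 1260 genes and 3 members at an unadjusted p under 0.05. The 3 were Slc17a7, Syn1 and Rab3a. Slc17a7 read 4341, 4312 and 4364 in control and 3528, 3532 and 3872 in stress females, and 3932, 4247 and 4310 in control and 4029, 4493 and 4584 in stress males. The female groups did not overlap (-0.25 ± 0.06, SE, adjusted p = 0.015) and the male groups did (0.07 ± 0.06, SE, adjusted p = 0.498), and the difference was 0.32 ± 0.09 (SE, adjusted p = 0.515). Syn1 fell by 0.33 ± 0.07 (SE, adjusted p = 0.0076) in females and had -0.06 ± 0.07 (SE, adjusted p = 0.619) in males, with a difference of 0.27 ± 0.10 (SE, adjusted p = 0.564). Rab3a fell by 0.26 ± 0.06 (SE, adjusted p = 0.014) in females and had -0.03 ± 0.06 (SE, adjusted p = 0.812) in males, with a difference of 0.24 ± 0.09 (SE, adjusted p = 0.564).

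Between males and females of both treatments 0 members differed by limma, where 15 genes did (0.0987%). At an unadjusted p under 0.05 stood 4 of the 34 members and 1437 of the 15194 genes tested. The members' log2 differences, males minus females, ran from -0.09 to 0.13.

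Members varied more among stress than among control libraries. The coefficient of variation (CV, the SD as a share of the mean) had a median over the members of 4.91% in control and 8.15% in stress libraries, and was lower in control for 31 of the 34. The same was true of 67.9% of all genes and of 82.6% of genes with a mean of at least 1000. Pclo (24.9%), Bsn (18.1%) and Slc17a8 (15.3%) had the widest stress spread.

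The members span a wide range of level. Per kilobase of transcript the control means ran from 13166 ± 307 (SD, n = 6) for Cplx1, 8527 ± 179 for Snap25 and 6524 ± 323 for Rab3a down to 102 ± 7.01 for Pclo, 71.0 ± 4.26 for Slc17a8 and 29.2 ± 3.24 for Doc2b. Rab3a, Syt11 (6242 ± 275) and Syp (6026 ± 178) followed each other within their spread. Of the 6 members that rose, Erc2, Rims1, Syt1 and Rims2 span 486 to 856 kb of the genome, while Stx1a (27.6 kb) and Sv2a (14.4 kb) are shorter than the median of 37.6 kb over the 10 that fell, and no test of span was run. Over all genes tested the medians were 31.9 kb for those that rose and 26.4 kb for those that fell. With a trend on transcript length and GC content taken out of each library, the change of Rab3a was -0.13 ± 0.05 (SE, adjusted p = 0.0547) and that of Erc2 0.10 ± 0.04 (SE, adjusted p = 0.080), both past the threshold without it. Napb (adjusted p = 0.0115) and Syt11 (adjusted p = 0.0187) gained the call.

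Other genes of the same machinery, and a list of pan-neuronal genes, were counted in 8 lists in all that hold no member. Of 180 tested, 26 rose and 43 fell, with a median change of -0.04. Among all genes tested 12.8% rose and 13.4% fell, and among those with a mean of at least 1000 these shares were 15.5% and 19.4%. Apart from Lin7a and Lin7b, the genes named from them are the called genes of lowest p, up to 3 a list, with log2 changes ± SE from limma. In the other SNARE and release genes 1 rose and 5 fell of 22. Nsf, the ATPase that takes SNARE complexes apart, changed by -0.23 ± 0.04, its adaptor Napa by -0.18 ± 0.04 and the syntaxin Stx4a by -0.28 ± 0.07. Of 15 other synaptotagmin family genes 5 rose and 2 fell, with Syt16 at 0.66 ± 0.06, Syt17 at 0.67 ± 0.13 and Doc2a, a calcium sensor related to Doc2b, at 0.57 ± 0.09. Of 26 other vesicle membrane genes 2 rose and 7 fell. The vesicle GTPase Rab27a, like Rab3a a binding partner of rabphilin, changed by -0.53 ± 0.08, Rab3b by 0.31 ± 0.05 and Rab3gap1 by -0.25 ± 0.05.

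Of 25 other active zone genes 9 rose and 4 fell, where 12.8% of all genes rose and 13.4% fell. Lin7c and Cask, partners in a scaffold complex, rose by 0.30 ± 0.04 and 0.33 ± 0.04, and Unc13c, a relative of Unc13a, changed by -0.50 ± 0.06. The relatives of Lin7c in that list went the other way, with Lin7a at -0.52 ± 0.09 and Lin7b at -0.45 ± 0.07, both called. Vesicle endocytosis genes, the company of Dnm1, fell in 10 and rose in 2 of 34. The dynamin-binding proteins Pacsin1 and Pacsin2 changed by -0.49 ± 0.05 and -0.36 ± 0.05, and Sh3glb1 by 0.25 ± 0.04. The proton pump that energises transmitter uptake had 7 of 18 subunit genes fall, among them Atp6v1g2 (-0.21 ± 0.04), Atp6v1c1 (-0.22 ± 0.05) and Atp6v1f (-0.21 ± 0.05). Of 18 dense core vesicle genes 3 rose and 4 fell. The granin Scg3 changed by -0.55 ± 0.05, the prohormone convertase gene Pcsk2 by 0.21 ± 0.04 and its chaperone gene Scg5 by 0.24 ± 0.06. Of 22 pan-neuronal genes 4 rose (Nsg1 by 0.26 ± 0.03) and 4 fell, with Thy1 at -0.28 ± 0.05 and Celf4 at -0.27 ± 0.05.

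**Figure D4:**
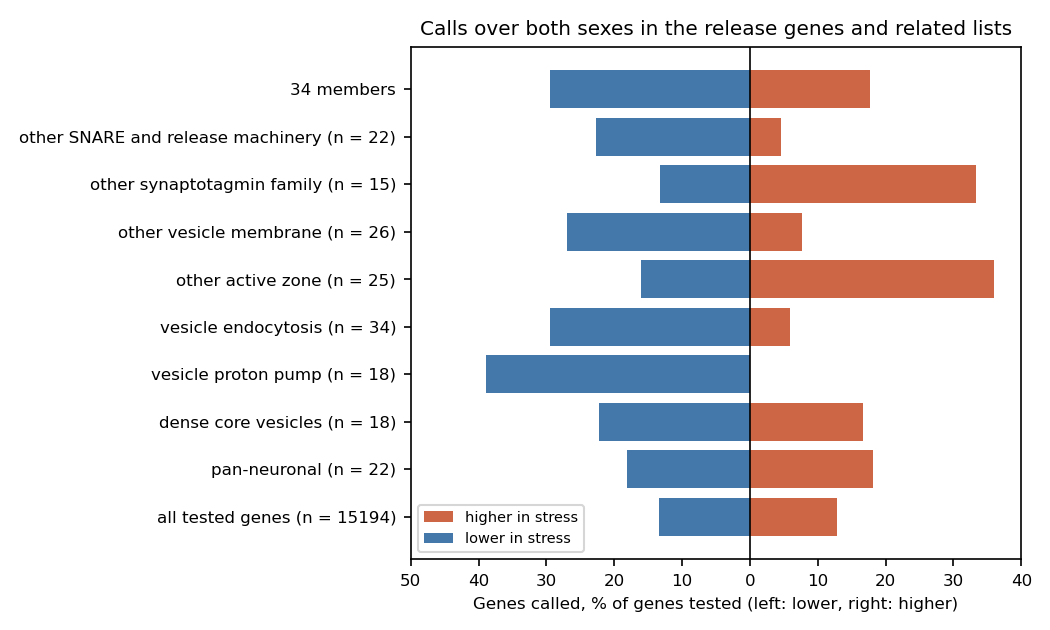
Share of genes that rose (bars to the right) or fell (bars to the left) after limited bedding, limma adjusted p under 0.05 over both sexes, among the 34 members, in each of the 8 related lists and among all genes tested. The members show 6 rises and 10 falls, and the proton pump list has 7 falls among 18 genes, where 12.8% of all genes rose and 13.4% fell.

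Several marker lists also differed between control and stress libraries, and their part in the members' changes was not tested beyond the fits named here. Among all genes tested 12.8% rose and 13.4% fell. The summed value of 11 A-fibre (large myelinated) neuron markers was 417818 to 452586 in control and 283589 to 343216 in stress libraries, with no overlap. The neurofilament genes Nefm, Nefl and Nefh make up most of that sum, with control means of 178399, 170260 and 65610. Of the 11 markers 7 fell, Pvalb rose (0.17 ± 0.05, SE, adjusted p = 0.028), and Runx3, Cntnap2 and Scn1a were not called. Vamp1, Syt2 and Slc17a7 are, as background, typical of such neurons. Peptidergic neuron markers summed to 33752 to 36098 in control and 29558 to 31438 in stress libraries, also with no overlap. Calca had the highest value of the genes in that sum. Of the 6 markers 2 fell (Calcb by 0.76 and Calca by 0.48 on the log2 scale), 1 rose and the rest were not called. The median change over the 6 was -0.06. C low-threshold mechanoreceptor markers summed to 6360 to 7294 and 5850 to 6671, with 2 of 6 falling. The pan-neuronal sum overlapped between the groups (294008 to 311848 in control and 273862 to 309737 in stress libraries), and with a pan-neuronal score as covariate the 16 called members all kept their call. That score also overlapped (-0.03 to 0.06 in control and -0.13 to 0.09 in stress libraries) and does not separate neuron types. The part of neuron types was therefore not tested by that fit. Satellite glia markers summed to 67202 to 75244 in control and 49609 to 55801 in stress libraries, with 5 of 9 falling and 1 rising, and fibroblast and matrix markers to 112534 to 120046 and 69416 to 102713, with 6 of 8 falling. Red blood cell markers summed to 3022 to 5546 in control and 4844 to 13503 in stress libraries, with 7 of 11 rising. With a red blood cell score as covariate 6 members fell in place of 10: Rph3a, Snap25, Vamp1, Syngr1, Dnm1 and Syp. In that fit the change was -0.15 ± 0.06 (SE, adjusted p = 0.110) for Rab3a, against -0.15 ± 0.05 without the score. It was -0.16 ± 0.07 (SE, adjusted p = 0.138) for Syn1, against -0.20 ± 0.05, and -0.11 ± 0.06 (SE, adjusted p = 0.257) for Syt4, against -0.14 ± 0.05. For Syt2 it was -0.18 ± 0.07 (SE, adjusted p = 0.124), against -0.29 ± 0.06. Rab3c was called as higher in that fit (0.20 ± 0.06, SE, adjusted p = 0.0267).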

How the data were processed

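The deposited table gave, per library, normalized read counts (a signal that is not whole-numbered) scaled by the authors in the manner of DESeq2. Beside them stood the authors' log2 fold change and its error, the deposited score (that fold change over its error) and the deposited p-values. The submitters' processing notes name STAR, Salmon, DESeq2 and mm10 but no version or role. For annotation, strand setting and filter nothing was given in the sources used here, and libraries came from a directional kit, per the labels' protocols.

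Reads could not be recovered as whole numbers, so no count model was used. Genes with at least 10 normalized counts in at least 3 libraries were kept (15194, with 128 removed). Values were tested as log2(value + 1), which understates the change of low genes, with limma 3.58.1 in R 4.3.3, in 1 fit of 4 group means with a trended prior variance. Stress was set against control in each sex and as the mean of the sexes, the effect in males against that in females, and males against females. P-values were adjusted over all genes tested (Benjamini-Hochberg, 0.05). The steps were tested on simulated data.

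All 34 members were reported, and up to 3 called genes of lowest p were named from each related list, with Lin7a and Lin7b besides. Members and lists were chosen with earlier results of these data known, and lists were counted, not tested. Gene positions, transcript lengths and overlaps are from GENCODE M21 (GRCm38), and promoters from RefSeq. Per-kilobase values divide by the annotated transcript length. Pair ratios, chosen after the values were seen, were computed in Python 3.11.15 with numpy 2.4.6 and not tested. The alternatives covered pseudocount, filter, scaling, prior variance, library weights, replicate blocks, covariates, single libraries left out, the authors' table and, added after the data were seen, a length and GC trend.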

Additional observations from a re-analysis of the deposited data

Results flagged for a closer look

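In groups of 6 libraries, 4 of 68 tested groups (34 members, control and stress) had a highest or lowest library far from the nearest of the others, and chance flags about 1 group in 20. Syt4 had its highest control value, 7176, in control male replicate 3, where Slc17a6 also had its highest control value, 6823. Syn2 had its highest stress value, 5420, in stress male replicate 3. Slc17a7 had its lowest control value, 3932, in control male replicate 1.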

How the results depend on the processing

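Over both sexes 29 alternatives were run. Rph3a, Snap25, Vamp1, Syngr1, Dnm1 and Syp (lower) and Rims2, Sv2a and Stx1a (higher) were called in every one. The other 7 called members lost the call in at least 1, 7 uncalled members gained one, and 11 were never called. No called member changed sign (0), and 6 uncalled members did.

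Signs turned for Cplx1 with upper quartile scaling (0.0062), equal totals (0.018), array weights (0.0056), the red blood cell score (0.067), the pan-neuronal score (0.010), the length and GC trend (0.0083), and without control male replicate 3 (0.0090), stress female replicate 1 (0.0015) or stress male replicate 2 (0.041, the highest without a library, where the lowest was -0.036). They turned for Cplx2 with the red blood cell score (0.086) and without stress male replicate 2 (0.018, lowest -0.089), for Sv2c with that score (0.14) and without control male replicate 3 (0.019, lowest -0.12), and for Unc13a with that score (0.053) and without control female replicate 3 (0.0060) or stress female replicate 2 (0.014, lowest -0.077). They turned for Sv2b without control female replicate 2 (-0.00084), control male replicate 1 (-0.0096), stress female replicate 2 (-0.012) or stress male replicate 3 (-0.017, highest 0.049) and with the length and GC trend (-0.014), and for Syt7 without stress male replicate 3 (-0.0049, highest 0.050) and with that trend (-0.0044). The causes were not tested.

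Members that rose over both sexes numbered 3 in place of 6 with 1 prior variance, which left 2 in place of 4 in males. Members that rose in females numbered 1 in the fit reported, 2 with either replicate block, the libraries of 1 sex alone or the red blood cell score, 3 with upper quartile scaling, array weights or the length and GC trend, 4 with equal totals and 7 with the pan-neuronal score. Genes that rose in females numbered 754, and 1139 with equal totals or 1144 with array weights. With equal totals 2314 genes rose and 1693 fell over both sexes, against 1948 and 2036, and in females 1139 rose and 669 fell, against 754 and 922. With the red blood cell score 1028 genes rose and 1063 fell over both sexes, with 6 members falling; in males 499 genes rose and 510 fell, with 2 members falling. The causes were not tested.

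Leaving out single libraries, genes that rose ranged from 1507 to 1929 and that fell from 1639 to 2024 over both sexes, with 3 to 8 members rising and 8 to 12 falling. In females the ranges were 369 to 860 and 484 to 1090 genes and 1 to 4 and 4 to 9 members, in males 644 to 1295 and 690 to 1333 genes and 2 to 5 and 5 to 7 members. Female gene counts were lowest without control female replicate 1 (369 and 517), control female replicate 2 (379 and 484) or stress female replicate 1 (385 and 506), and male counts without control male replicate 2 (644 and 690), with 775 rising without stress male replicate 3. Between the sexes 5 to 7 genes were higher and 5 to 25 lower in males, with 5 without control female replicate 2, 25 without stress female replicate 2 and 20 without stress male replicate 1. For the difference of the sexes 0 to 1 genes were lower, 1 of them without control female replicate 1 or 2, control male replicate 3, stress female replicate 2 or stress male replicate 1.

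Same-numbered libraries did not deviate together (correlations of -0.02 to 0.15), so the numbers were not taken as pairs, and 3 of 6 numbers had their own partner as the best match. With the replicate block within sex 7 members rose and 12 fell over both sexes, and 2 genes differed downward in the effect of the sexes. With the replicate block across sexes these were 7, 11 and 1. Bsn (adjusted p = 0.0319), Syt11 (0.0258) and Napb (0.0490) gained a call with the block within sex, and Bsn (0.0335) and Napb (0.0458) with the block across sexes.

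The spacing of low values in stress female replicate 2, and with it the depth of that library, is uncertain.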
